A study of Mus musculus with 14 samples.

Results

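The cytosolic ribosome is built from ribosomal RNA and a set of ribosomal proteins, each encoded by a gene of its own and named Rpl for the large subunit or Rps for the small subunit. These genes were followed across neuron types of the medial vestibular nucleus of the mouse, a part of the brainstem that takes up head-motion signals and helps to steady gaze and posture. A gene was a member when its platform symbol began with Rpl or Rps and a digit or was Rplp0, Rplp1, Rplp2 or Rpsa, leaving out pseudogene symbols and the Rps6k kinases. Of 16244 genes with a probe set naming a single symbol, 35 met the rule: 17 of the large subunit, 17 of the small subunit, and Rps19bp1, which the symbol rule takes in although it encodes a protein that binds Rps19. All 35 matched the RefSeq annotation of GRCm38.p6 by Entrez identifier, with the same symbol.

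The study sorted single neurons into types by transmitter genes, channels and markers, then pooled the amplified cDNA of each type and hybridised it to Affymetrix arrays, which give a fluorescence signal per probe set, on a log scale taken here as log2. The 14 arrays are 2 technical replicates of each of 7 pools: excitatory E1 and E2, and the inhibitory pools I1a, I1b, I2, I3a and I3b. Every pool carries the same labels, which name lines GIN, GlyT2-13 and YFP-16 with a C57BL/6 background and an age of 24 to 32 days after birth, and which line gave which cells is not stated. These lines express fluorescent reporters under regulatory sequences of Gad1, Slc6a5 and Thy1, in that order, so a pool holds reporter-bearing cells sorted by the study into a type. The number of cells or mice per pool is not stated, and type E3 of the design was not analysed here. Since each type has 1 pool, a test between single pools compares those pools against array error and not the types.

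The labels were read against defining transcripts. Slc17a6, a vesicular glutamate transporter, stood at 11.11 in E1 and 10.98 in E2, but also at 10.48 in I1b and 8.60 in I1a, while Slc32a1, the vesicular GABA and glycine transporter, read 9.20 to 9.76 in the I pools and 5.41 to 6.60 in the E pools. All 4 measured neuron markers reached 5 in at least 1 pool, and their summed level ran from 36.69 in I3a to 44.91 in E2. Of other cell types, 2 of 5 measured oligodendrocyte markers reached 5 (Mbp and Cnp, both highest in I3a, with Mog, Mag and Mobp under 3 in every pool), 1 of 6 astrocyte markers did (Aldoc, with Gfap, Aqp4, Aldh1l1 and Slc1a3 under 3 in every pool and Gja1 at 4.19 in I3a and at most 2.66 elsewhere), and none of 4 microglial, 2 endothelial or 2 blood markers did. In each array 15.1% to 16.4% of probe sets reached 5.

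As background, most mRNAs of ribosomal proteins begin with a cytosine followed by a run of pyrimidines, the terminal oligopyrimidine or TOP motif, through which the kinase mTOR and the protein LARP1 adjust their translation together. Several translation factors share the motif. Ribosomal proteins are made in near-equal amounts in dividing cells, and in neurons ribosomes work in the cell body and also in dendrites and axons.

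The start regions of 5 members on which the results turn are printed to show how they differ at the place where a TOP motif would lie. Each window holds 15 bases before and 15 after an annotated transcription start in RefSeq GRCm38.p6, 5′ to 3′ on the gene's strand, with the longest run of C and T in capitals.
Rps27, chr3:90213634-90213663, minus strand: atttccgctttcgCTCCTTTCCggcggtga
Rps26, chr10:128626492-128626521, minus strand: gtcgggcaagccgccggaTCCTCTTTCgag
Rpl22l1, chr3:28805493-28805522, plus strand: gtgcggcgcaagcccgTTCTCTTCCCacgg
Rpl38, chr11:114668565-114668594, plus strand: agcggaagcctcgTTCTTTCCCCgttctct
Rpl37a, chr1:72711245-72711274, plus strand: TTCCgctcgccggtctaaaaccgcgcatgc
The first 4 hold a long pyrimidine run at or near the start, and Rpl37a holds only a short one at the edge of its window. Promoters of 30 members were in the table, 34 in all because Rpl22, Rps24, Rps27l and Rpl3l have 2 starts each. A C at the start followed by 4 pyrimidines was found in 6 of the 34 (17.6%), against 2.5% of all 32851 promoters, and a run of at least 6 pyrimidines in the 30-base window in 19 (55.9%), against 29.2%. In the longer window from 250 bases before to 50 after the start, on either strand, the core CCGGAAG of GABP-type Ets factors was in 13 (38.2%, against 8.9%) and the YY1 core AAGATGG in 6 (17.6%, against 6.3%). These matches describe letters in the annotated windows and are not measured sites.

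A signal of 5 or more in at least 1 pool was required for testing. This kept 19 of the 35 members (54.3%), 11 of the large subunit and 8 of the small, against 27.1% of all genes. Of the 19, 18 stood at 5 or more in every pool, and Rpl22 passed on part of the pools only. The other 16 never exceeded 4.34 on an array, and 9 of them were under 3 in every pool. Genes that any cell needs were among these, such as Rps16, Rpl12 and Rps4x at the floor of 2.39 on all 14 arrays. A low signal here therefore cannot be read as a lack of the transcript. How much of it lay in the probe set was not tested for any member. Rps3, a protein at the entry of the mRNA channel, read 2.39 and 3.23 on the I1a arrays, 3.90 and 4.30 on those of E2 and 3.83 and 4.34 on those of I1b. Rps6, the target of the S6 kinases, read 3.25 and 4.27 in I3b and at most 2.95 elsewhere.

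Signal went with the kind of probe set. Of 26 member probe sets whose name ends in _at alone, 3 reached 5, while 12 of 14 ending in _a_at, designed to match transcripts of the same gene, and 23 of 27 ending in _x_at, some of whose probes may match other sequences, did so. Over all genes the shares were 17.3%, 34.8% and 48.3%. Of the 19 kept members, 10 are read by an _x_at set, 6 by an _a_at set and 3 by an _at set. Ribosomal protein genes have many processed pseudogenes, and how much of an _x_at signal came from another sequence was not tested. A further 23 member symbols, those of 12 kept genes among them, were reached only by probe sets naming several symbols and are counted below without names. The stalk genes Rplp0, Rplp1 and Rplp2 were not among the single-symbol probe sets.

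Across the 7 pools the 19 kept members had a smaller median range than all genes, and 2 pools, E1 and I1a, held most of their low values. The range of pool means had a median of 0.93 log2 units, from 0.37 for Rpl35 to 1.86 for Rpl22, where all 4409 kept genes had a median of 1.13. The standard deviation between arrays of a pool had a median of 0.13, against 0.17 over all genes. By limma's moderated F test, 6 of 19 were called, which asks for a range of at least 1 log2 unit and a p under 0.05 after Benjamini-Hochberg adjustment, against 55.2% of all genes. A range of at least 1 was reached by 7, against 57.2%. By adjusted p alone, 16 passed, against 83.3%. Of the 12 kept genes named only with other symbols, 6 were called, and their median range was 1.06. In bulk pools, a lower signal from fewer cells holding a transcript and from less RNA in each cell cannot be told apart.

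The called members were Rpl22, Rps27, Rpl37a, Rps27l, Rps26 and Rpl41. Of these, Rpl22 passed the low-signal filter on part of the pools only, with means under 5 in I1a and I1b. With values under 5 set to 5 its range was 1.36 and not 1.86. Rps27, a small-subunit protein with a zinc finger, read 9.95 and 9.81 on the arrays of E1 and 10.73 and 10.70 on those of E2. In the inhibitory pools it read 10.57 and 10.41 (I1a), 10.67 and 10.77 (I1b), 11.31 and 11.22 (I2), 11.11 and 11.25 (I3a), and 11.13 and 10.93 (I3b). Its E1 arrays lay below all others and its I2 and I3 arrays above all others, over a range of 1.38 log2 units (adjusted p 8.55e-07). Rpl37a, a zinc-finger protein of the large subunit, showed a like order, with 9.53 and 9.49 in E1, 10.16 and 10.04 in E2, 10.27 and 9.89 in I1a, and 10.11 and 10.09 in I1b. It reached 10.52 and 10.42 (I2), 10.69 and 10.90 (I3a), and 10.60 and 10.54 (I3b), a range of 1.28 (adjusted p 1.58e-05). Its means of 10.10 in E2, 10.08 in I1a and 10.10 in I1b lay closer together than the arrays of I1a.

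Rps26, whose protein sits by the exit of the mRNA channel, had low arrays in both E1 (7.84 and 7.69) and I1a (7.72 and 7.86), and its highest in I2 (8.88 and 8.80). The other pools lay between, from 8.14 to 8.56, and the range was 1.07 (adjusted p 1.15e-05). Rpl41, which encodes one of the smallest proteins of the ribosome, read 8.66 and 8.47 in E1, 8.98 and 8.66 in I1a and 9.66 and 9.50 in I3b, with the other pools from 9.05 to 9.41. Only its E1 and I1a arrays were below 9, with a range of 1.01 (adjusted p 0.000266). Rpl39, which lines the exit tunnel of the growing peptide, was lowest on the E1 arrays (9.14 and 8.85) and the I1a arrays (9.16 and 9.07) and highest on those of I3b (10.07 and 9.92), a range of 1.0 (adjusted p 6.11e-05), just short of being called.

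**Figure D1:**
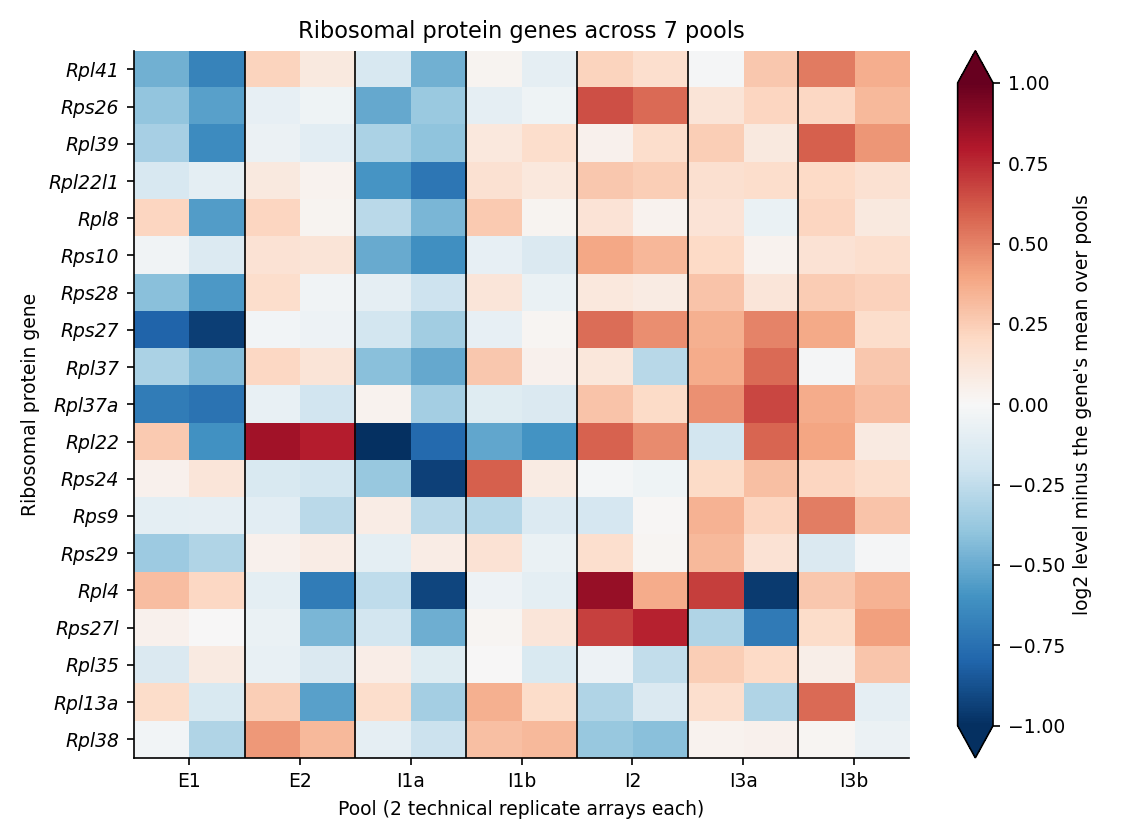
Log2 level of each of the 19 kept ribosomal protein genes (vertical) on each of the 14 arrays in 7 pools (horizontal, 2 technical replicates per pool), less that gene's mean over pools; blue is below and red above the mean, and the scale ends at 1 log2 unit either way. The E1 and I1a columns are blue for most genes, and Rpl38, Rpl13a, Rpl35 and Rps27l at the bottom have the lowest correlations with the other members.

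Other members had an order of their own. Rps27l, the p53-inducible paralogue of Rps27, was high in I2 alone, at 8.13 and 8.22, and low in I3a, at 7.15 and 6.74, with a range of 1.23 (adjusted p 0.000488). Its other arrays lay between 6.96 and 7.86. Rpl38, known for its part in translating Hox mRNAs, was lowest in I2 (11.68 and 11.64), where Rps27, Rps26 and Rpl22l1 were highest, and highest in E2 (12.49 and 12.38) and I1b (12.36 and 12.38). Its range was 0.77 (adjusted p 4.41e-05), and its E1 and I1a arrays, from 11.76 to 12.03, overlapped. Rpl4 had a range of 1.21 but its I3a arrays read 8.05 and 6.40, and it did not pass (adjusted p 0.147). With either I3a array left out it passed, with a range of 1.58 or 1.28. The smallest ranges were those of Rpl35 (0.37), Rpl13a (0.49), Rpl8 (0.52), Rps29 (0.57), Rps9 (0.61) and Rps28 (0.74). Of these, Rpl13a and Rpl8 did not pass (adjusted p 0.524 and 0.18).

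**Figure D2:**
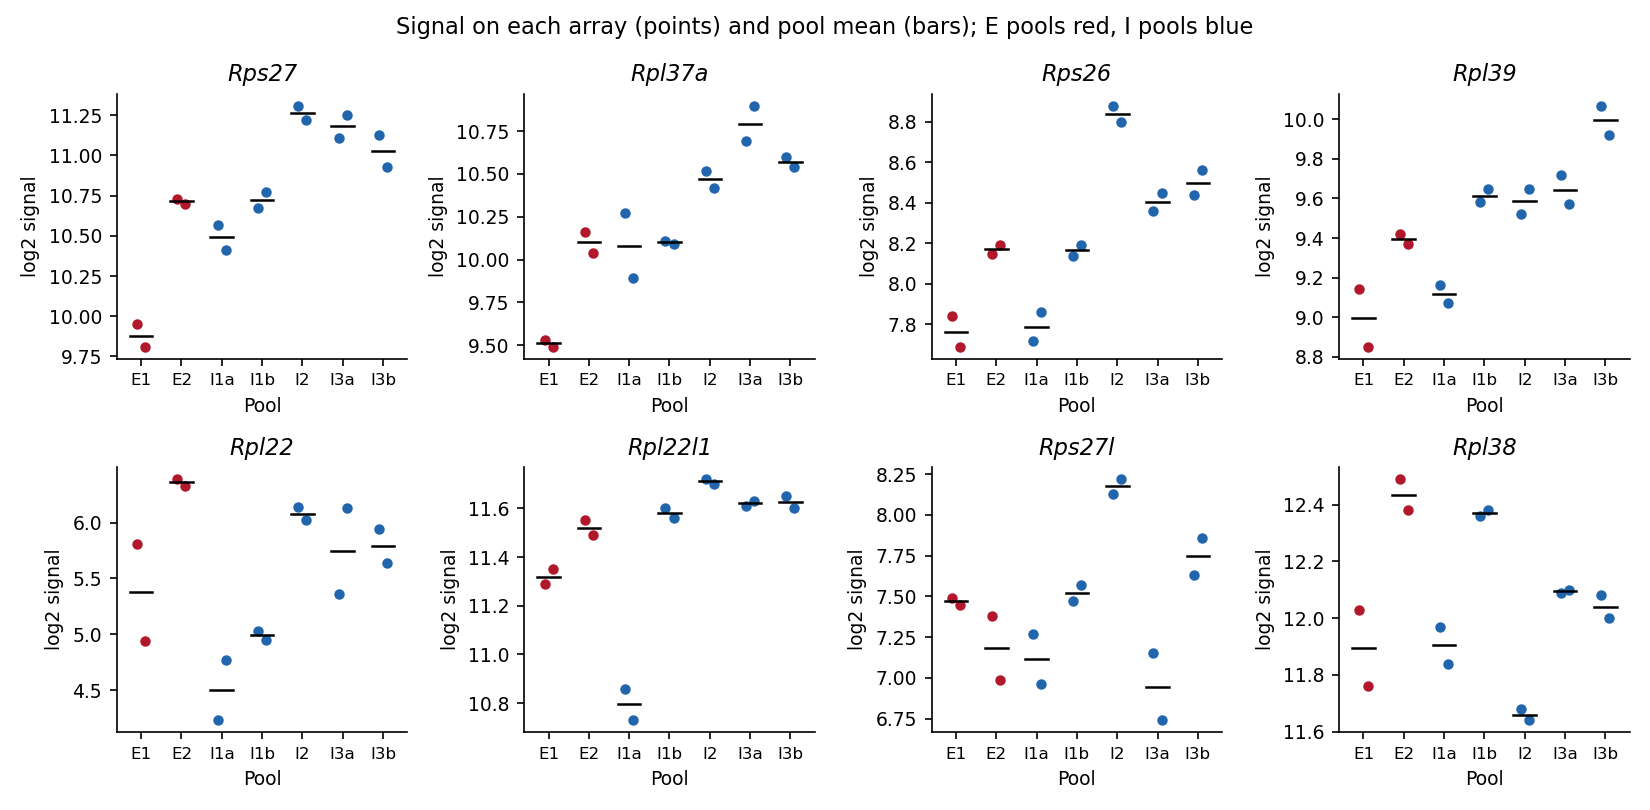
Log2 signal (vertical) of 8 ribosomal protein genes in each of 7 pools (horizontal), with a point per array, a bar at the pool mean, E pools in red and I pools in blue; each panel has its own scale. Rps27 and Rpl37a are lowest in E1, Rpl22l1 is lowest in I1a, and Rps27l and Rpl38 stand at opposite ends in I2.

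How far the members moved together was described by the correlation of each with the mean of the other 18 over the 7 pools, which share arrays and normalization. It was at least 0.7 for 10 of 19, where 10% of the 4390 other kept genes correlated so with the members' mean, and for 10 of 19 against 7.18% after each pool's median was taken off. The highest were Rpl22l1, Rpl41, Rps26 and Rpl39 at 0.89, and 7 lay under 0.5, with Rpl38 at 0.04 and Rpl13a at 0.08. The mean of gene-centred levels over the 19 was -0.25 for E1 and -0.35 for I1a, 0.02 for both E2 and I1b, and 0.18 (I2), 0.16 (I3a) and 0.23 (I3b) for the others. The median over all 4409 kept genes was also low in I1a, at -0.15. Less that median in each pool, the members stood at -0.27 (E1), -0.20 (I1a), 0.11 (I2), 0.21 (I3a) and 0.20 (I3b). Both subunits gave a like profile, with -0.23 and -0.28 in E1 and -0.38 and -0.32 in I1a for the large and the small. The lowest pool was E1 for 7 members, against 11.7% of all genes, and I1a for 7, against 23.2%. Together this makes 14 of 19, against 34.9% of all genes.

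The 33 kept genes of the mitochondrial ribosome, a separate particle, did not share the low value in E1. Their mean was 0.18 in E1 and 0.22 in I1b, and -0.14 in I1a and -0.15 in I3a. The 9 kept translation genes with TOP mRNAs outside the ribosome stood at -0.05 (E1), 0.10 (E2), -0.28 (I1a) and 0.12 (I3a). Signals of bacterial control transcripts also differed between pools. Lys read 10.37 and 10.49 in the E pools, 10.65 and 10.84 in the I1 pools and 11.51 or more in I2 and I3, and Dap read 4.57 to 5.09 in the E and I1 pools and 5.86 to 6.33 in the others. BioB, with 7.74 in I2 and 9.62 in I3a, did not share that order. Their part in the result was not tested, and when they were added is not stated.

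**Figure D3:**
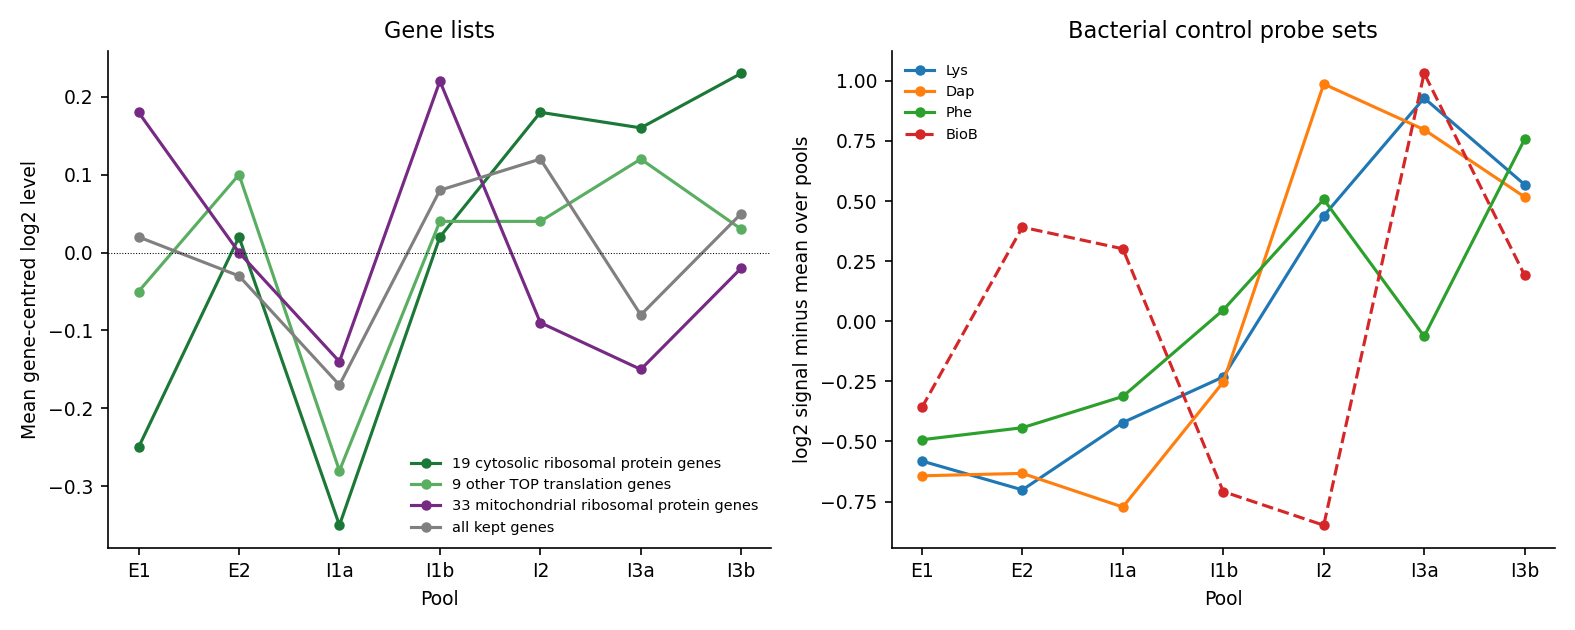
Left, mean gene-centred log2 level (vertical) of 4 gene sets in 7 pools (horizontal); right, log2 signal of 4 bacterial control transcripts less their mean over pools. The cytosolic ribosomal protein genes are lowest in E1 and I1a (-0.25 and -0.35) and above 0.1 in I2, I3a and I3b, the mitochondrial set is at 0.18 in E1, and Lys, Dap and Phe are lower in the E and I1 pools than in most of the others.

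Excitatory and inhibitory pools were compared over pool means, 2 against 5. No ribosomal protein gene was called by limma, none had an unadjusted p under 0.05 (background 6.19%), and the background of calls was 0.0227%. The smallest adjusted p was 0.753. Of 19 differences, 16 were negative (E lower), against 50.7% of all genes, and their median was -0.14, against -0.01. Rps27 had means of 10.30 and 10.94, a difference of -0.64 (SE 0.30, adjusted p 0.76), and Rpl37a 9.81 and 10.40, a difference of -0.60 (SE 0.27, adjusted p 0.753). Rpl39 followed at -0.40 (SE 0.26) and Rps26 at -0.37 (SE 0.30). On the positive side stood Rpl22 at 0.45 (SE 0.48), Rpl38 at 0.15 (SE 0.22) and Rps10 at 0.03 (SE 0.27). None of the 19 separated the E from the I pools (background 12.2%). These values rested in good part on E1: without it Rps27 differed by -0.22, Rpl37a by -0.30, Rpl39 by -0.20 and Rps26 by -0.17, while without E2 Rps27 differed by -1.06 and Rpl37a by -0.89. With E1 left out, 11 of 19 were negative, and without I1a the median was -0.24. Rpl22, Rpl38 and Rps10 turned negative without E2.

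The inhibitory families I1 and I3 were compared over 2 pools each. Again none was called (background 0%), 2 had an unadjusted p under 0.05 (background 11.2%), and the smallest adjusted p was 0.405. The values lay lower in I1 for 17 of 19 (53.8% of all genes), with a median of -0.43 against -0.04. Both I1 pools lay below both I3 pools for 11 of the 19, against 23% of all genes, and no member lay the other way. Rpl37a differed by -0.59 (SE 0.25), Rps27 by -0.50 (SE 0.31) and Rps9, a small-subunit protein by the entry of the mRNA channel, by -0.50 (SE 0.18, adjusted p 0.405). Rpl22, an RNA-binding protein of the large subunit, had 4.23 and 4.77 on the I1a arrays, 5.03 and 4.95 on those of I1b, 5.36 and 6.13 for I3a and 5.94 and 5.64 for I3b. Its difference of pool means was -1.02 (SE 0.39, adjusted p 0.414), but between these families its pool means reached 5 only in I3. With values under 5 set to 5 the difference was -0.76, and as the mean of its probe sets -0.56. Without Rpl22, 16 of 18 members were negative, 10 lay lower in both I1 pools and the median was -0.42. Rpl38 differed by 0.07 (SE 0.25) and Rpl13a by 0.01 (SE 0.22), and the sign of each turned without I1b. The median was -0.19 without I1a and -0.61 without I1b. Among the 12 kept genes named only with other symbols, 11 were negative, with a median of -0.52. The neuron marker Rbfox3 read 8.55 and 9.48 in the I1 pools and 8.37 and 5.39 in the I3 pools, and Lys and Dap were lower in both I1 pools. Their part in the result was not tested.

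**Figure D4:**
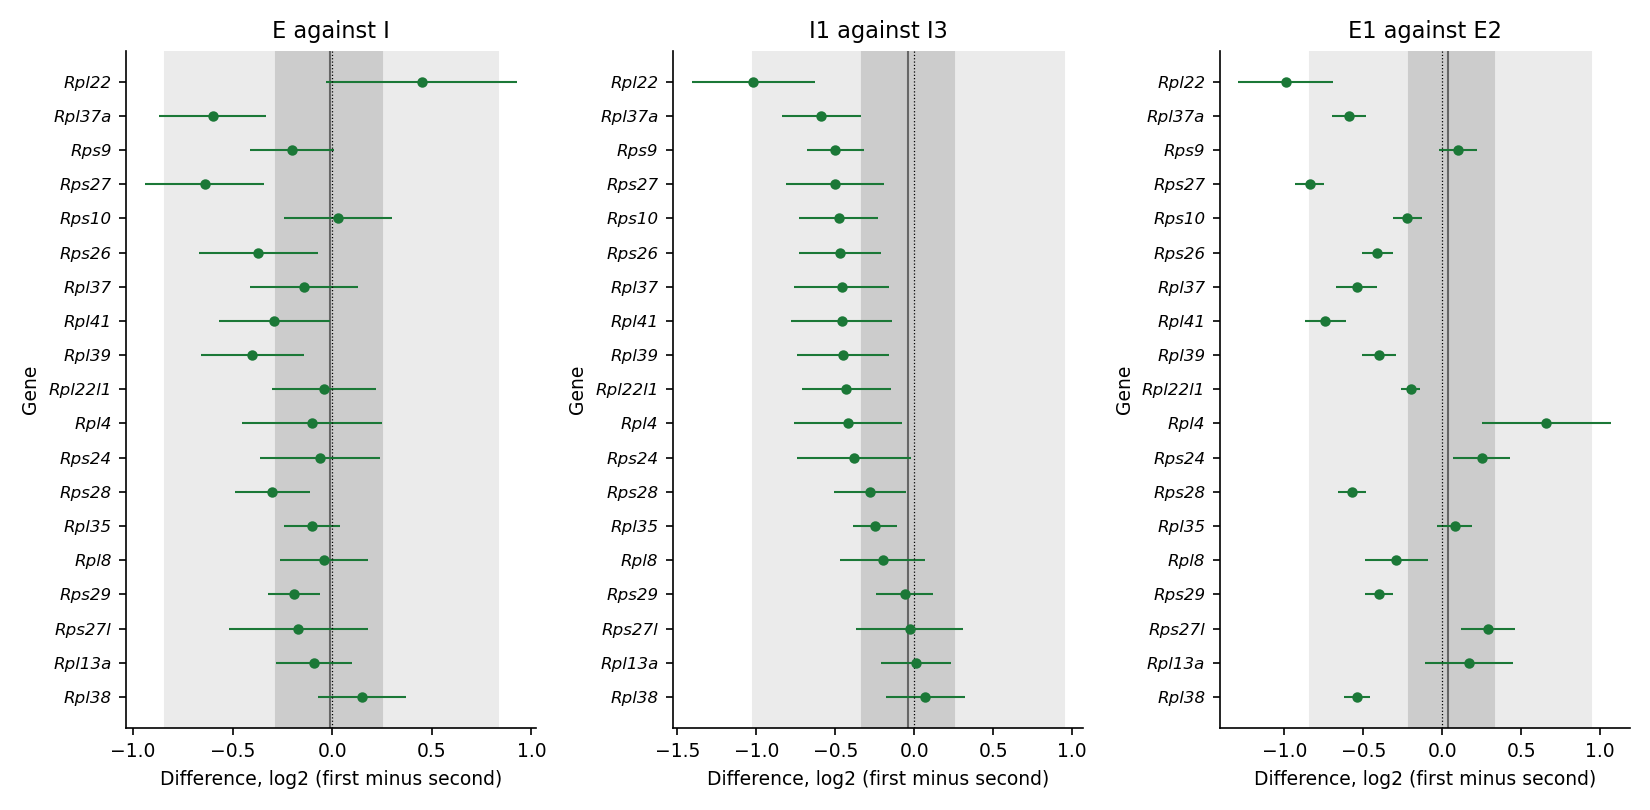
Difference in log2 level (horizontal, first-named minus second-named) of 19 ribosomal protein genes (vertical) in 3 comparisons, with bars of 1 standard error, from pool means for E against I and I1 against I3 and from arrays for E1 against E2. Grey bands span the percentiles 25 to 75 (dark) and 5 to 95 (light) of all 4409 genes and the grey line is their median; 17 of 19 points lie below 0 for I1 against I3, and 11 of the E1 against E2 differences pass an adjusted p of 0.05, all of them negative.

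The E1 pool held less signal than E2 for most of the members. No member was called at 1 log2 unit (background 7.39%) and 12 had an unadjusted p under 0.05 (38.2%), but by limma's adjusted p alone, a rule added after the data were seen, 11 of 19 were lower in E1 and none higher. Over all genes 11.2% were lower and 16.4% higher by that rule. The median difference was -0.40, against 0.04, and 13 of 19 were negative, against 44.8%. Rpl22 read 5.81 and 4.94 in E1 and 6.39 and 6.33 in E2, a difference of -0.99 (SE 0.30, adjusted p 0.0305), and the E1 arrays were far apart. That difference missed the threshold without E1 replicate 2 (-0.55, adjusted p 0.245) and without either E2 array. Rps27 differed by -0.84 (SE 0.09, adjusted p 5.37e-05), Rpl41 by -0.74 (SE 0.13, adjusted p 0.00146) and Rpl37a by -0.59 (SE 0.11, adjusted p 0.00259). The other 7 that passed were Rps28 (-0.57), Rpl37 (-0.54), Rpl38 (-0.54), Rps26 (-0.41), Rpl39 (-0.40), Rps29 (-0.40) and Rpl22l1 (-0.20). Rps28 and Rps29 are small-subunit proteins, and Rpl37 and Rpl39 are short basic proteins of the large subunit.

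Values were higher in E1, short of the threshold, for Rpl4 (0.66, SE 0.41), Rps27l (0.29, SE 0.17), Rps24 (0.25, SE 0.18) and Rpl13a (0.17, SE 0.28). All 4 probe sets of Rps24 that reached 5, each ending in _x_at, were higher in E1, by 0.25 to 1.13. As the mean of its probe sets Rps24 passed, at 0.44 (adjusted p 0.0106). The count of 11 stayed after quantile normalization and after centring of the arrays, where 15.2% and 14.7% of all genes were lower. It was 6 without E1 replicate 2 and 7 without either E2 array. Of the 12 genes named only with other symbols, 3 were lower and 2 higher, with a median of 0.05. Among genes of the mitochondrial ribosome, 3 of 33 were higher in E1 and none lower, and their median was 0.17. Of the 9 TOP translation genes 2 were lower: Eif4b, an initiation factor that helps to unwind mRNA, by -0.55 (SE 0.11, adjusted p 0.00343), and Nap1l1, a histone chaperone, by -0.33. Ribosome biogenesis genes had 1 higher, Polr1c, a subunit of the RNA polymerase for ribosomal RNA (0.66, SE 0.19, adjusted p 0.0216), and 1 lower of 11. None of 6 regulators of TOP translation passed. Of the bacterial controls, BioB read 8.23 in E1 and 8.98 in E2, BioC 10.39 and 11.02 and BioDn 12.80 and 13.30, all lower in E1, while Lys read 10.49 and 10.37 and Dap 4.70 and 4.71. Of the 4 neuron markers, Syt1 was lower in E1 by -2.09 (SE 0.12, adjusted p 2.88e-07), with 9.38 against 11.47, and Rbfox3 read 10.45 and 10.78. The other 2 lay slightly higher in E1, Snap25 at 13.39 and 13.25 and Map2 at 9.57 and 9.41. Their part in the result was not tested.

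I1a was compared with I1b, its neighbour by name. Over the 4409 kept genes I1a lay lower, with a median of -0.22, and the members' median was -0.40. Fewer probe sets were at the floor on the I1a arrays (34.3% and 35.8%) than on those of I1b (37.0% and 37.1%). None was called by limma (background 13.1%), 11 had an unadjusted p under 0.05 (50.4%), and 7 passed the adjusted p alone. Each of the 7 was lower in I1a, where 34.2% of all genes were lower and 9.16% higher. After centring of the arrays 4 were lower and 1 higher (all genes 22% and 18.6%), and after quantile normalization 4 and 3 (23.1% and 19.1%). So the share of these 19 members was near the background. On the deposited scale, 3 of the 12 kept genes named only with other symbols were called. By the adjusted p alone 7 of those 12 were lower in I1a and 1 higher, and their median was -0.56. Rpl22l1, the paralogue of Rpl22, read 10.86 and 10.73 in I1a and 11.60 and 11.56 in I1b, a difference of -0.79 (SE 0.06, adjusted p 2.6e-06), and no other pool was below 11.29. Rps24, a small-subunit protein mutated in Diamond-Blackfan anaemia, read 7.49 and 6.93 against 8.46 and 7.95, a difference of -0.99 (SE 0.18, adjusted p 0.00103). Rpl37 (-0.62), Rpl39 (-0.50), Rpl38 (-0.47), Rps10 (-0.45) and Rps26 (-0.38) passed as well. With the arrays centred, Rpl22l1 stood at -0.54, Rps24 at -0.75 and Rpl37 at -0.38 (adjusted p 0.0419). Most of Rpl39, Rpl38, Rps10 and Rps26 no longer passed in that setting. Rpl4 at -0.51 did not pass, and Rps9 at 0.11 and Rpl35 at 0.04 were above 0 without passing. After centring Rps9 stood higher in I1a, by 0.36 (adjusted p 0.0392).

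Of the TOP translation genes, 5 were lower in I1a and 1 higher, among them Naca, a chaperone of nascent chains, by -0.85, and Hnrnpa1, an RNA-binding protein, by 0.82. Dkc1, the pseudouridine synthase of ribosomal RNA, differed by 1.39 (SE 0.20, adjusted p 0.000203) and Nop56, a core protein of the nucleolar particles that methylate it, by -1.02 (SE 0.16, adjusted p 0.000287). Of the 6 regulators of TOP translation 2 passed limma's adjusted p, both lower in I1a: Larp4 by -2.47 (SE 0.50, adjusted p 0.00186) and Tsc1 by -0.75. Beside these values the oligodendrocyte transcripts Mbp and Cnp read 2.43 and 4.93 in I1a and 5.50 and 6.62 in I1b. Their part in the result was not tested.

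I3a and I3b, by contrast, had like levels for most of the members, with a median difference of -0.04 against -0.09 over all genes. None was called (background 9.91%), 5 had an unadjusted p under 0.05 (41%), and 3 passed limma's adjusted p alone, against 31.7% (21.9% lower and 9.75% higher in I3a). Rps27l was lower in I3a by -0.80 (SE 0.17, adjusted p 0.00447), on arrays that read 7.15 and 6.74 against 7.63 and 7.86. Rpl39 was lower by -0.35 (SE 0.11, adjusted p 0.0276) and Rps29 higher by 0.32 (SE 0.09, adjusted p 0.0164), and both missed the threshold without the intensity trend or without the low-signal filter. Without I3b replicate 1, 1 member passed, and without I3a replicate 1, 2 were called. After quantile normalization 2 were lower and 4 higher, and after centring 1 and 3. Of the 6 regulators of TOP translation 2 passed, both lower in I3a: Larp4 by -2.15 (SE 0.50, adjusted p 0.00662) and Rheb by -0.45. Mbp and Cnp read 6.20 and 9.14 in I3a and 3.43 and 5.14 in I3b.

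Paralogue pairs were set side by side within each pool order, since levels of different probe sets cannot be compared. Rpl22 had its highest mean in E2 and its lowest means in I1a and I1b, whereas Rpl22l1 was low only in I1a and E1, and in I1b stood with the upper pools. The Rpl22 means in I1a and I1b were under 5, at 4.50 and 4.99. Its other probe set, under 5 in every pool, was lowest in I3b (3.90) and E1 (3.96), with 4.04 in I1a and 4.11 in I1b. Rps27 was lowest in E1 and high in I2, I3a and I3b, whereas Rps27l was high in I2 and lowest in I3a. In I3a against I3b, Rps27 had a difference of 0.15 (SE 0.09, adjusted p 0.247) and Rps27l of -0.80. Rpl39l, a paralogue of Rpl39 known from testis, was at the floor on all arrays. Rpl3l, a paralogue of Rpl3 known from muscle, read 3.03 and 3.42 in I3a and at most 2.46 elsewhere, and Rpl7l1 stayed between 2.84 and 3.73.

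Several probe sets reached 5 for 8 of the kept genes, and these gave a check within the array. Differences had the same sign in every probe set for 6 of 8 genes in E against I, 5 in I1 against I3, 4 in E1 against E2, 6 in I1a against I1b and 4 in I3a against I3b. Rpl37a held in 3 sets, with -0.75 to -0.47 for E1 against E2 and -0.65 to -0.59 for E against I. Rps28 gave -0.62 to -0.51 and Rps29 gave -0.68 to -0.40 for E1 against E2. Rps24 kept its sign in 4 sets for I1a against I1b, from -1.78 to -0.99, and Rps27l in 3 sets for I3a against I3b, from -0.98 to -0.70. Every set of Rps24 and Rps29 that reached 5 ends in _x_at. Their agreement therefore cannot show whether signal came from other sequences. Rpl13a did not keep its sign in any comparison, with -0.85 to 0.17 for E1 against E2, and Rpl35 in 1 of 5. With _x_at sets left out, 12 members were kept, and 7 of them were lower in E1 than in E2 by the adjusted p alone and none higher, against 10.7% and 17% of all genes so read. With sets of several symbols taken in, Rpl37a was read by another set, differed by -0.25 between E1 and E2 and missed the threshold (adjusted p 0.0818).

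**Figure D5:**
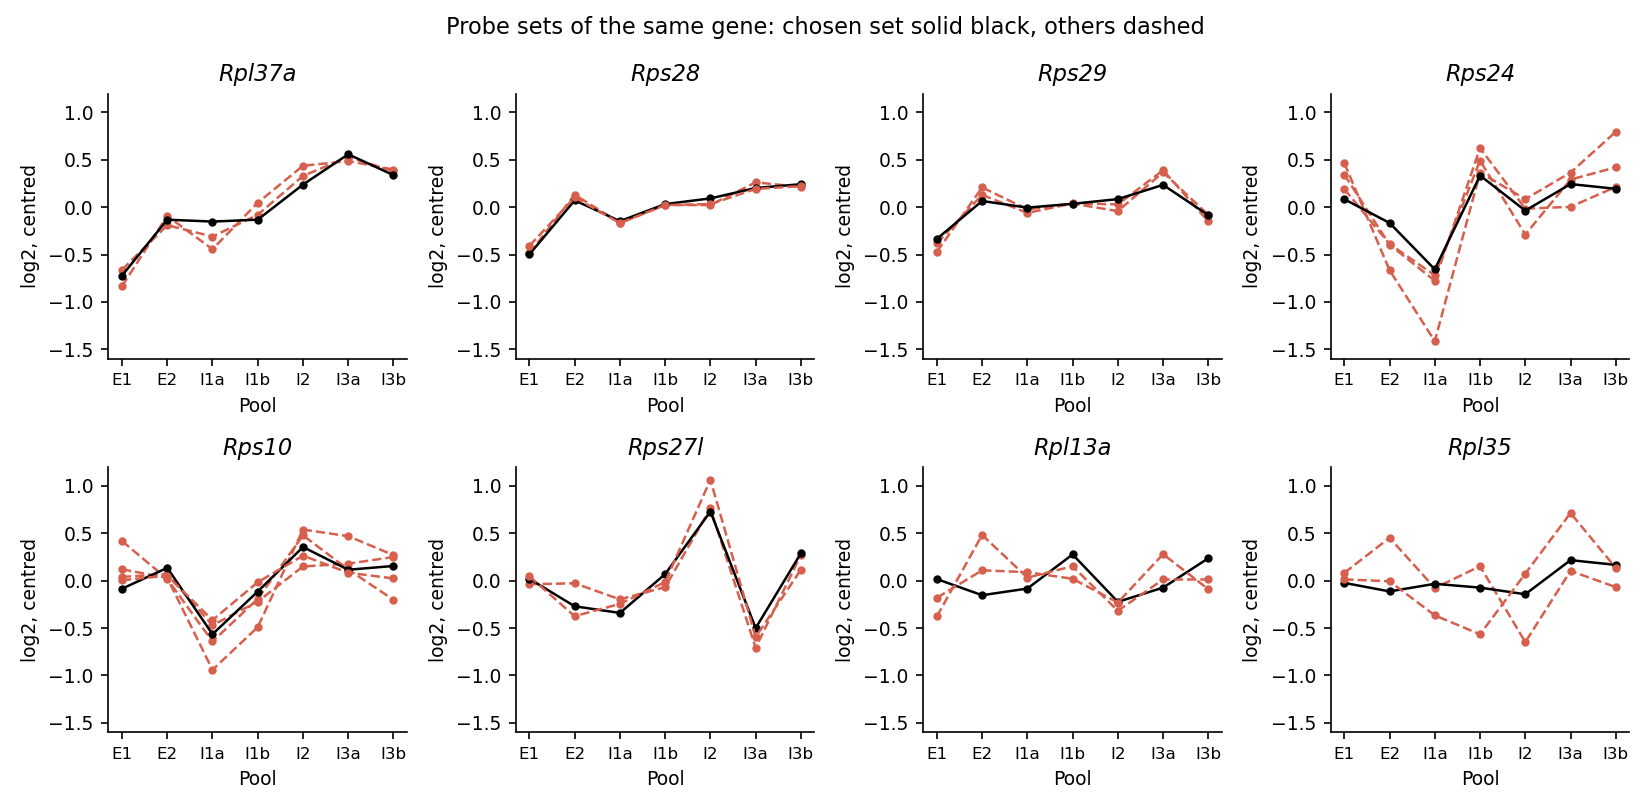
Log2 signal less its mean over pools (vertical) in 7 pools (horizontal) for every single-symbol probe set reaching 5 of 8 ribosomal protein genes, with the set used in solid black and the others in dashed red. The sets of Rpl37a, Rps28 and Rps29 run close together, while those of Rpl13a and Rpl35 cross.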

How the data were processed

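Gene expression was measured on 14 Affymetrix arrays, 2 technical replicates of each of 7 cDNA pools. The deposited values are signals that the authors made with affy and GCRMA, per the submitters' processing notes, with versions not given in the sources used here. The authors' log base is not stated, and the deposited values were taken as log2 because GCRMA usually writes log2 and their range fits that. GCRMA corrects background, brings arrays to a common scale and gives a value per probe set. The values run from a floor of 2.387 to 15.9. Signal over this floor takes the place of depth, and the small number of pools limits the precision. Of 30843 probe sets, 64 controls were set aside, 24034 named a single symbol in the platform annotation, 477 several and 6268 none.

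Each of 16244 genes was read by its single-symbol probe set with the highest mean. The 4409 genes with a type mean of at least 5 were fitted in limma 3.58.1 (R 4.3.3, an intensity trend in eBayes after lmFit), and p-values were adjusted by Benjamini-Hochberg over all of them. E against I and I1 against I3 used 7 pool means, with 5 and 3 residual degrees of freedom. The other comparisons used the 14 arrays with 7, where the error is technical. A gene was called at an adjusted p under 0.05 and at least 1 log2 unit. The fits were tested on simulated data.

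Named were, per comparison, up to 4 kept members in each direction with the largest difference, the 8 largest and 6 smallest ranges, paralogues and the stalk genes, and members past the adjusted p alone were added after their values were seen. The members and lists were chosen with earlier results of these data known. Alternatives changed the normalization, the low-signal filter, the choice of probe set, the trend, the replicate block and the arrays or pools included.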

Additional observations from a re-analysis of the deposited data

Results flagged for a closer look

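Among the 5 inhibitory pools, pool I1a stood apart for 2 of 19 genes by the gap to its nearest neighbour over the whole range. For Rpl22l1 this ratio was 0.86, with a mean of 10.79 in I1a and 11.58 to 11.71 in the others. For Rpl8, a protein by the peptidyl transferase centre, it was 0.76, with 7.92 against 8.32 to 8.44. The critical ratio for 5 values is 0.71, and chance passes it in about 1 of 20 groups. Over all 4409 kept genes, some pool stood apart in this way for 9.25%, and I1a stood apart as the lowest for 1.43%. The gene-centred levels of these 4409 genes had a median of -0.15 in I1a.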

How the results depend on the processing

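In E against I and I1 against I3 no member was called in any alternative, and the smallest adjusted p with the pool as a random block on 14 arrays was 0.383 and 0.202. For E1 against E2 the count called was 1 after quantile normalization and 1 after centring, and 0 to 1 with an array left out. The count past the adjusted p alone, 11, was 7 without the low-signal filter, 7 without _x_at sets and 6 to 11 with an array left out. For I1a against I1b, called counts were 1 without the filter, 3 with several-symbol sets and 0 to 1 with an array left out, and counts past the adjusted p were 18 with several-symbol sets, 4 without _x_at sets and 6 to 9 with an array left out. For I3a against I3b, called counts were 1 without the filter and 0 to 2 with an array left out, and counts past the adjusted p were 6 after quantile normalization, 7 with several-symbol sets, 1 without the trend and 1 to 3 with an array left out. Among the 7 pools, several-symbol sets gave 11 called and 31 past the adjusted p, leaving out _x_at sets gave 9 past it, and leaving out an array gave 5 to 8 called. Several-symbol sets add genes (35 kept) and leaving out _x_at sets removes them (12 kept). Without the low-signal filter all 35 are tested. The member then called was Rps3 for I1a against I1b (-1.27) and Rps6 for I3a against I3b (-1.32), both under 5 in every pool. For E1 against E2, Rpl22 moved from -0.99 to -1.05 after quantile normalization and to -1.04 after centring. With an array left out, Rps24 reached -1.28 or -1.25 for I1a against I1b. The cause of the other changes was not tested.

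With the replicate block, the counts past the adjusted p were 11 for E1 against E2, 9 for I1a against I1b, 3 for I3a against I3b and 18 among the 7 pools, where Rpl4 (adjusted p 0.0461) and Rpl8 (0.0451) passed among the pools and Rpl8 (0.0172) and Rps28 (0.0491) passed for I1a against I1b. It changed the side of the adjusted p for no other kept member. Over all genes the replicate numbers did not pair the arrays, since deviations of same-numbered arrays correlated at -0.12 to 0.21 over 21 pairs of pools and 4 pairs exceeded 0.1, but the members' mean was higher on replicate 1 in 7 of 7 pools, by 0.05 to 0.18. The median of all kept genes was higher on replicate 1 in 4 of 7 pools. It ran from -0.09 in I3b (members 0.05) to 0.14 in E1 (members 0.16).

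Of 727 values of named genes under alternatives, 684 kept direction and side of the threshold, 14 lost and 13 gained it, and 16 turned in sign. Part of the 684 could not turn. Leaving out E1, E2 or I2 does not alter an I1 against I3 difference, only its error, and a range of pool means has no sign. With a pool left out, Rpl22 in E against I ran from -0.05 (without E2) to 0.94 (without E1), Rpl38 from -0.12 to 0.42 and Rps10 from -0.10 (without I1a) to 0.14, with -0.08 without E2. In I1 against I3, Rpl38 ran from -0.16 (without I1b) to 0.30 and Rpl13a from -0.17 (without I1b) to 0.19, with -0.14 without I3a and -0.10 without replicate 2 of every pool. With an array left out, Rpl13a in E1 against E2 ran from -0.22 to 0.56, Rps9 in I1a against I1b from -0.05 to 0.28, Rpl35 there from -0.05 to 0.14, and Rpl4 in I3a against I3b from -1.26 to 0.38. As the mean of their probe sets, Rpl13a was -0.32 in E1 against E2 and Rpl35 was -0.04 in I1a against I1b.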
